A study of Mus musculus with 2 samples.

Results

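General capillary endothelial cells that carried transcripts of both Hey1 and Sema3g were examined in lungs that held cells of a donor and of the host. They were 826 of 8297 cells that passed the cell filter, 739 of 4945 in the donor library and 87 of 3352 in the recipient library, and they are called members here. The donor library held tdTomato-positive, CD45-negative cells, and the recipient library held tdTomato-negative, CD45-negative cells. Both came from the same 3 lungs of C57Bl mice, which had received a suspension of tdTomato-labelled single cells, were taken 6 months later, and were dissociated and pooled before sorting. The strain and age of the donors are not given in the sources used here. The study asked which donor-derived endothelial and epithelial cells remain in such lungs. Each group is 1 library of pooled animals, so no test between libraries was possible, and every interval below is a 95% interval that covers counting error only.

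Members were chosen by values of the cells themselves. A cell counted as general capillary with at least 3 unique molecular identifiers (UMIs, each a counted transcript) of Gpihbp1, at least 3 of Plvap, at most 2 of Ednrb and none of Gja5 or Slc6a2. A member had in addition at least 1 UMI of Hey1 and 1 of Sema3g, fewer than 3 of the 6 tip-cell genes Esm1, Inhbb, Grp, Rnd1, Neurl3 and Cxcr4, and fewer than 4 of the 5 interferon genes Ifit1, Ifit3, Ifit3b, Rsad2 and Isg15. The levels of these genes in the members are thus a description of the choice, and so is every other gene of the same cells set against the cells not chosen.

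General capillary cells are the capillary endothelium of the lung that carries the lipoprotein anchor GPIHBP1 and the fenestral diaphragm protein PLVAP, and that lies beside the aerocytes, the other capillary cell type, in the alveolar wall. Along a vessel tree, endothelial cells towards the artery are known for Notch signalling: the ligand DLL4 activates NOTCH1, the cleaved receptor acts with the DNA-binding protein RBPJ, and transcriptional repressors such as HEY1 are made. Endothelium on the arterial side also makes ephrin-B2 (Efnb2), the chemokine CXCL12 and the secreted guidance protein semaphorin 3G (Sema3g), whereas venous endothelium makes NR2F2, the adhesion protein VCAM1 and P-selectin.

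Because the members are defined by a Notch target gene and an arterial semaphorin, promoters of Sema3g, Efnb2 and Cxcl12 are shown from RefSeq (GRCm38.p6). Among the arterial genes called higher in members below, Efnb2 and Cxcl12 had the most UMIs. The arterial genes Edn1 and Gja4 had more UMIs but were not called. Each window runs from 250 bases before to 50 bases after the start site, read along the gene. Capitals mark the RBPJ core TGGGAA on either strand.
Sema3g (chr14:31217623-31217922, plus strand): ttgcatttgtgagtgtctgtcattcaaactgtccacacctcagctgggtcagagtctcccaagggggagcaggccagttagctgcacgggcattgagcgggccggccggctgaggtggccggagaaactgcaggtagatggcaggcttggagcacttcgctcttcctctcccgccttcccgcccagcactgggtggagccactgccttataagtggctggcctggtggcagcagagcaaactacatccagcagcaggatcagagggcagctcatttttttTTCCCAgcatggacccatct
Efnb2 (chr8:8661193-8661492, minus strand): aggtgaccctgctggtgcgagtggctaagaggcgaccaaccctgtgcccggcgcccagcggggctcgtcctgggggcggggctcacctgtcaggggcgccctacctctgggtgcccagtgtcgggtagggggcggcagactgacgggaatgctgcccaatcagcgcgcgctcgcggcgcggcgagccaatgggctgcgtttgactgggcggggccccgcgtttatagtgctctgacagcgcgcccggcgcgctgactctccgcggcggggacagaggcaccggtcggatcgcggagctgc
Cxcl12 (chr6:117168285-117168584, plus strand): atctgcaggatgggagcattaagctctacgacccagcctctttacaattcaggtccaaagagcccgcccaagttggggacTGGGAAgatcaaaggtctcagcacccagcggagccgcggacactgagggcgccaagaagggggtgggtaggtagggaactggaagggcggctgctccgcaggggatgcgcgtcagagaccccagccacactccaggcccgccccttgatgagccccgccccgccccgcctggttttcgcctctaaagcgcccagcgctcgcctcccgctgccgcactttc
The core occurred once in the Sema3g window, beginning 30 bases after the start site, and once in the Cxcl12 window, beginning 170 bases before it. Of 32851 promoter windows of this length in the table, 25.6% held it, and the Efnb2 window did not. Among other arterial genes, the windows of Edn1, Gja4, Dll4 and Mecom did not hold it either, and the Depp1 window held it once. These letters are a description of the sequence and were not tied to binding. Hey1 itself lies on chromosome 3 from 8663359 to 8667256 (minus strand) and Sema3g on chromosome 14 from 31217860 to 31230352 (plus strand) in GRCm38.

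Most general capillary cells carried Sema3g, and many carried Hey1. In the donor library 58.1% of 2157 general capillary cells had a Hey1 UMI and 76.9% a Sema3g UMI. In the recipient library the shares were 44.3% of 318 cells for Hey1 and 69.5% for Sema3g. Both genes were found together in 47.7% of the donor cells, where the product of the single shares is 44.7%, and in 35.2% of the recipient cells, where the product is 30.8%. From 1 to 6 UMIs the share of cells declined at each step for both genes in both libraries, so the rule divides a range of low counts, and these counts do not tell whether the members are a type of their own. After the tip and interferon exclusions, 34.3% of donor general capillary cells (32.3% to 36.3%) and 27.4% of recipient general capillary cells (22.5% to 32.6%) were members.

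**Figure D1:**
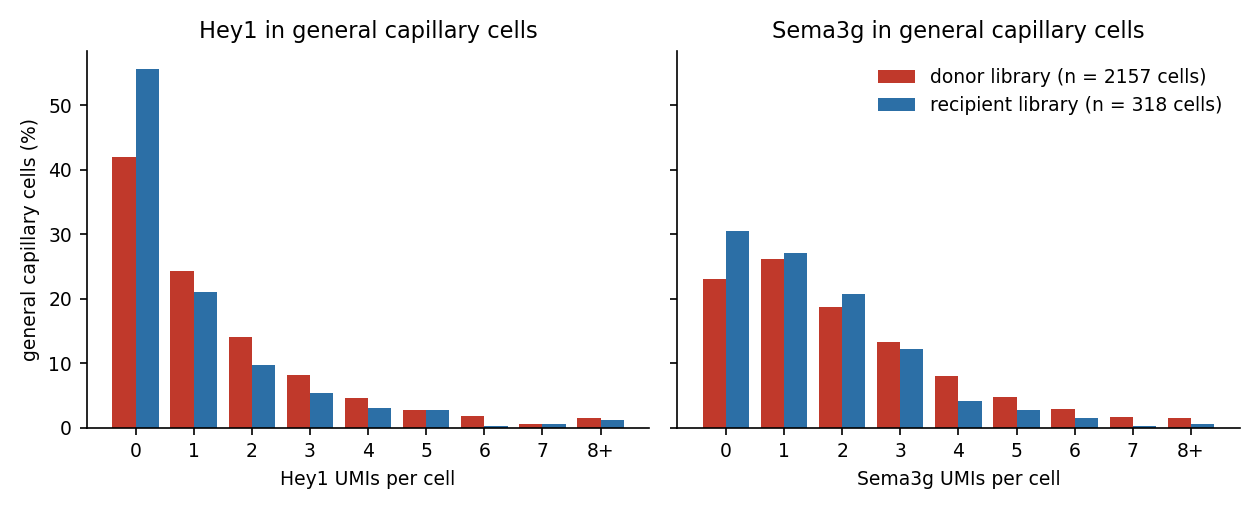
UMIs of Hey1 (left) and Sema3g (right) per general capillary cell, as a share of these cells in percent, in the donor library (red) and the recipient library (blue). In both libraries the shares decline from 1 to 6 UMIs, the bar at 8 pools 8 or more, and fewer donor than recipient cells have 0 UMIs (41.9% against 55.7% for Hey1).

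Depth sets part of this choice, because a cell with more UMIs is more likely to show both genes. The median was 5263 UMIs in donor members and 5651 in recipient members, against 5414.5 and 5477 in the other general capillary cells of those libraries. When all cells were thinned to 4000 UMIs, leaving out 309 shallower donor cells and 41 recipient cells, the share of members was 29.1% of 1906 donor and 23.4% of 273 recipient general capillary cells, with the classes drawn again on the thinned counts. In the donor library 332 of 739 members had a single Hey1 UMI and 245 a single Sema3g UMI, and in the recipient library 45 and 28 of 87 did. Donor members had 1 to 13 Hey1 UMIs (median 2) and 1 to 19 Sema3g UMIs (median 2). Recipient members had 1 to 9 Hey1 UMIs (median 1) and 1 to 10 Sema3g UMIs (median 2). As UMIs per 1000000 UMIs summed over a class (CPM), members stood at 397 for Hey1 among donor cells and 362 among recipient cells. Aerocytes, taken as cells with at least 5 Ednrb UMIs and at most 2 of Gpihbp1 and of Plvap, stood at 3.9 and 1.4 CPM.

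The donor library had 6319 barcodes and the recipient library 3784. They had 816 barcodes in common, of which only the copy with more UMIs was kept, and 3 donor members and 2 recipient members carried such a barcode. Doublet scores were among the highest of their library in 2.17% of donor members and 2.30% of recipient members, against 2.19% and 3.90% of the other general capillary cells. Fibroblast markers, 8 genes from Col1a1 to Inmt, summed to 14.5 CPM in donor members and 243 CPM in recipient members, against 13.0 and 247 CPM in the other general capillary cells, so that their level went with the library and not with membership.

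The members carried the markers of general capillary cells. The 6 pan-endothelial genes, among them Pecam1 and the junction gene Cldn5, summed to 12914 CPM in donor members and 12855 CPM in recipient members, close to the 12477 and 11706 CPM of the other general capillary cells. Of 12 further general capillary genes, none differed 1.5-fold from the other general capillary cells in both libraries. Over all genes 0.140% were so much higher and 1.41% so much lower, so this count does not show that the 12 were alike. Their median log2 ratio was 0.05 among donor cells and 0.27 among recipient cells. The intervals of 5 donor and 7 recipient ratios lay above 0, and those of 2 donor ratios and no recipient ratio below. Kit, the stem cell factor receptor, stood at 327 and 319 CPM in donor and recipient members, and the apelin receptor gene Aplnr at 191 and 289.5 CPM. The aerocyte enzyme gene Car4 stood at 309 and 147 CPM in members, against 4029 and 4047 CPM in aerocytes. No member had Gja5 or Slc6a2, which the rule requires.

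An arterial lean was present in part. Of the 3 proposed markers that the rule did not use, Gja4, which encodes the gap junction protein connexin 37, stood at 655 CPM in donor members (631 to 680) against 512 CPM in other donor general capillary cells, and at 718 CPM in recipient members (646 to 795) against 414 CPM. The log2 ratio of members over the others was 0.36 among donor cells and 0.80 among recipient cells. Edn1, which encodes the vasoconstrictor endothelin-1, stood at 761 CPM against 546 CPM in the donor library and at 916 CPM against 633 CPM in the recipient library, with log2 ratios of 0.48 and 0.53. Lpl, the lipase that GPIHBP1 holds at the capillary wall, stood at 375 CPM against 327 CPM in the donor library and at 131 CPM against 84.1 CPM in the recipient library, with log2 ratios of 0.20 and 0.64. All 3 were higher in members in both libraries, and none reached 1.5-fold in both. Over 16 settings of the processing the log2 ratios of the 3 stayed above 0 in both libraries, but their size varied. For recipient Edn1 the highest was 0.98, with thinned counts. The lowest was 0.08, with the tip and interferon exclusions also applied to the other cells and cells with markers of other types left out.

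In the donor library, values just inside and just outside the rule lay close together. Donor members with exactly 1 UMI of each gene (131 cells) had 643 CPM of Gja4, 690.1 CPM of Edn1 and 267 CPM of Efnb2, and the 293 donor members with at least 2 of each had 711, 865 and 577 CPM. Cells just outside, with Hey1 and no Sema3g UMI (159 donor cells), had 645, 681 and 312 CPM, and those with Sema3g and no Hey1 UMI (507 donor cells) had 614, 643 and 273 CPM. For the exclusion of tip cells, the 209 donor members with 2 of the 6 tip genes had 576 CPM of Efnb2, and the 134 cells with Hey1 and Sema3g but 3 tip genes had 579 CPM. In the recipient library the groups were small and lay farther apart. The 14 recipient members with 1 UMI of each had 374 CPM of Edn1 and 1274 CPM of Cxcl12, against 687 and 487 CPM in the 21 cells with Hey1 alone and 727 and 439.6 CPM in the 90 cells with Sema3g alone. The 20 recipient members with 2 tip genes had 712 CPM of Efnb2 and 469 CPM of Gja4, against 442 and 291 CPM in the 11 cells with 3.

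Across all genes, few separated the members from the other general capillary cells by size. A gene was counted as called when it was at least 1.5-fold apart in the same direction in both libraries and had at least 20 UMIs in each library. Of 8564 genes measured, 12 were called higher in members, which is 0.140%, and 121 were called lower, which is 1.41%. Among the 24 measured genes of the arterial list none was called higher and 5 were called lower. The lower calls included markers that sat in a few cells of the comparison: Ager, a marker of alveolar type 1 epithelium, had 782 of its 1011 UMIs in 3 of the 1418 other donor cells, and Lyz2, a myeloid gene, had 977 of 1086 UMIs in 3 cells.

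The other general capillary cells include the tip-like and interferon cells that the rule takes out of the members. The comparison was therefore also made, as an alternative chosen after seeing the data, with the general capillary cells left by the same exclusions, 899 among donor cells and 171 among recipient cells. Of 7917 genes measured, 18 were then called higher in members (0.227%) and 62 lower (0.783%). With a level of at least 30 CPM and intervals that excluded equality in both libraries, 6 genes were higher and 15 were lower. The rest of the comparison within libraries uses these cells, called the comparison cells.

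The 6 higher genes were Efnb2, Cxcl12, Mecom, Depp1, Mgll and Limch1, and the first 4 are on the arterial list. They depend on the comparison cells: against all other general capillary cells none of the 6 was 1.5-fold apart in both libraries, with donor log2 ratios of 0.36 for Efnb2, 0.58 for Cxcl12, 0.17 for Mecom, 0.13 for Depp1, 0.41 for Mgll and 0.19 for Limch1, and at most 2 of them were under any other setting that kept these cells. With those cells matched on UMIs the donor ratio of Mecom was -0.07. Efnb2, on chromosome 8 from 8617434 to 8661242, encodes the ligand ephrin-B2. It stood at 456 CPM in donor members (435 to 476) against 247 CPM in the comparison cells, and at 507 CPM in recipient members (447 to 572) against 193 CPM, with log2 ratios of 0.88 (0.78 to 0.99) and 1.39 (1.12 to 1.67). A UMI of Efnb2 was found in 77.8% of donor members and 80.5% of recipient members, against 52.3% and 53.2% of the comparison cells, so that the difference lay in many cells. The interval of the ratio lay above 0 in both libraries, which the rule for naming these genes required.

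Cxcl12, on chromosome 6 from 117168535 to 117181367, stood at 520 CPM in donor members against 333 CPM in the comparison cells and at 642 CPM in recipient members against 390 CPM, with log2 ratios of 0.64 (0.55 to 0.74) and 0.72 (0.50 to 0.93). Its UMIs were less evenly spread: 3 recipient members held 110 of 328 UMIs, and the share of cells with a UMI was 61.2% and 66.7% in members against 54.6% and 58.5% in the comparison cells. Mecom, which encodes a zinc finger transcription factor, stood at 50.1 CPM against 25.7 CPM in the donor library and at 37.2 CPM against 12.7 CPM in the recipient library, where members held 19 UMIs. Depp1, known as a target of FOXO factors, stood at 54.1 CPM against 36.0 CPM in the donor library and at 68.5 CPM against 23.5 CPM in the recipient library. Mgll, which encodes monoacylglycerol lipase, had log2 ratios of 0.69 and 0.63, donor library first, and Limch1 had log2 ratios of 0.60 and 1.19.

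Of the 20 arterial genes measured, 4 were called higher and 3 lower, with a median log2 ratio of 0.30 among donor cells and 0.48 among recipient cells, where the medians over all genes measured were 0.01 and -0.00. Dll4, the Notch ligand of arterial and tip cells, was just short in 1 library, with 339 CPM against 234 CPM in donor cells and 256 CPM against 126 CPM in recipient cells. The 3 lower genes were Vegfc, Fbln5 and Mgp. Vegfc, the growth factor of lymphatic vessels, stood at 35.6 CPM in donor members against 75.7 CPM and at 43.0 CPM in recipient members against 133 CPM. The elastic fibre gene Fbln5 stood at 17.3 CPM against 35.8 CPM and at 11.7 CPM against 56.8 CPM. Mgp stood at 1.90 CPM against 16.2 CPM and at 139 CPM against 433 CPM. Vegfc and Fbln5 are on the arterial list, and Vegfc was highest in Slc6a2 cells, the venous class (421 CPM among donor cells and 500 CPM among recipient cells), and Fbln5 too (429.9 and 480.5 CPM).

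Part of the venous genes were lower in members. Of 10 measured, 5 were called lower and none higher, where 0.783% of all genes were called lower and 0.227% higher. The median log2 ratios were -0.79 among donor cells and -1.48 among recipient cells. Ephb4, also on the list, was not lower than in all other general capillary cells. It stood at 169.9 against 169.6 CPM in the donor library and at 178 against 165 CPM in the recipient library. Vcam1 stood at 11.6 CPM in donor members against 44.6 CPM and at 58.7 CPM in recipient members against 252 CPM, with log2 ratios of -1.94 (-2.42 to -1.48) and -2.10 (-2.70 to -1.55). Its UMIs were unevenly spread: 3 comparison cells held 98 of 212 UMIs in the donor library, and 3 held 108 of 257 in the recipient library. A Vcam1 UMI was found in 3.8% of donor and 24.1% of recipient members, against 7.8% and 29.2% of the comparison cells. Lrg1, which encodes a secreted leucine-rich glycoprotein, stood at 29.4 CPM against 66.0 CPM and at 54.8 CPM against 149 CPM. Of the low genes Selp, Car8 and Bst1, which complete the 5, Selp had 0.95 CPM in donor members against 12.4 CPM and no UMI in recipient members against 29.4 CPM. Vwf, the von Willebrand factor gene, did not separate in the donor library (689 CPM against 671 CPM) and was lower in recipient members (286 CPM against 650 CPM).

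Of the 15 lower genes, Vcam1, Lrg1, Vegfc and Fbln5 have been given. The tetraspanin gene Cd81 stood at 78.5 CPM in donor members against 166 CPM and at 109.6 CPM in recipient members against 305 CPM. Its log2 ratios were -1.08 and -1.48. In Slc6a2 cells Cd81 stood at 660 CPM among donor and 717 CPM among recipient cells, and Bhlhe40 at 256 and 413 CPM. Recipient Gja5 cells had still more Cd81 (1261 CPM). Whether cells of such types among the comparison cells set these ratios was not tested. Tmem252 stood at 168 CPM against 310 CPM in the donor library and at 264 CPM against 553 CPM in the recipient library. Ptgs1, which encodes cyclooxygenase-1, stood at 58.6 CPM against 97.2 CPM and at 48.9 CPM against 86.2 CPM. The others were Samsn1, Pim3, Odc1, Marcksl1, Bhlhe40, Rcan1, Nrgn and Pf4. The platelet genes Pf4 and Nrgn were in few cells: in the recipient library all 156 Pf4 UMIs of the comparison cells lay in 3 cells. Once cells with markers of other types were also left out, neither gene was lower in members in both libraries. Pf4 is itself among those markers, so its result was set in part by the filter. All 6 higher genes stayed past 1.5-fold in both libraries under that setting, and so did 12 of the 15 lower ones.

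**Figure D2:**
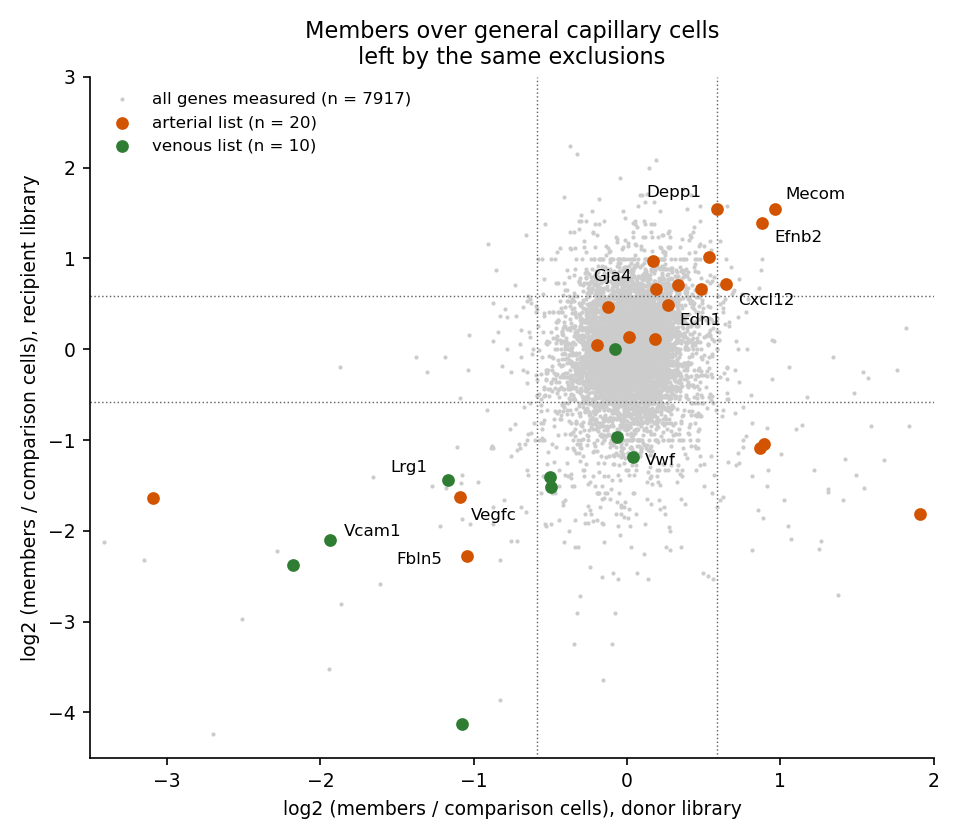
Each point is a gene, placed by its log2 ratio of members over general capillary cells left by the same exclusions, in the donor library (horizontal axis) and the recipient library (vertical axis). Grey points are all 7917 genes measured, orange the 20 arterial and green the 10 venous genes measured, dotted lines mark 1.5-fold, and 11 genes lie outside the axes. Efnb2, Cxcl12, Mecom and Depp1 lie past the lines at upper right, and Vcam1 and Lrg1 at lower left.

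The remaining lists gave few calls. Over all genes 0.227% were called higher and 0.783% lower, so lists of this size would seldom hold a call. A count of 0 therefore does not show that a list was unchanged. Of 20 Notch pathway genes measured none was called in either direction, with median log2 ratios of 0.02 in both libraries. The receptor gene Notch1 stood at 330.3 CPM in donor members against 274 CPM and at 313 CPM in recipient members against 264 CPM. The Notch target Hes1 stood at 544 CPM against 581 CPM and at 605 CPM against 603 CPM. Of 14 vasoactive genes 1 was called, Ptgs1, and it was lower. The angiotensin-converting enzyme gene Ace stood at 1513 CPM against 1214 CPM in the donor library and at 1598 CPM against 1064 CPM in the recipient library, under 1.5-fold in the donor library. Of 16 guidance genes, Efnb2 was called higher and the semaphorin receptor gene Nrp2 lower, at 5.5 CPM against 17.2 CPM and at 27.4 CPM against 72.5 CPM. Of 7 lipid genes only the endothelial lipase gene Lipg was called, and it was lower, at 3.6 CPM against 6.5 CPM and at 9.8 CPM against 37.2 CPM. Of 22 transcription factor genes only Mecom was called, of 7 genes of the vascular endothelial growth factor pathway only Vegfc, and of 16 matrix genes only Mgp and Fbln5. None of the 15 bone morphogenetic protein and transforming growth factor genes or the 7 genes of MHC class II antigen presentation was called. The same held for the 17 further interferon genes and the 17 early response genes. Against all other general capillary cells, 9 donor and 8 recipient ratio intervals of the bone morphogenetic protein and transforming growth factor genes lay above 0. In each library 1 lay below 0. Of the early response genes, 11 donor and 10 recipient intervals lay below 0, and 5 and 3 above.

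Since the rule divides a range of counts, named genes were followed over all general capillary cells left by the exclusions, thinned to 4000 UMIs and grouped by their summed Hey1 and Sema3g UMIs. The 4 groups, of 0, 1, 2 to 3 and 4 or more UMIs, held 308, 372, 491 and 379 donor cells and 66, 54, 79 and 39 recipient cells. Efnb2 stood at 163, 274, 368 and 623 CPM over the 4 donor groups and at 140.2, 236, 402 and 647 CPM over the 4 recipient groups. The group with most UMIs was thus 3.82-fold (3.28 to 4.47) and 4.62-fold (3.14 to 6.93) above the group with none, in the donor and recipient library in turn, where members against comparison cells had given 1.84-fold and 2.62-fold. Dll4 stood at 174, 261, 301 and 451 CPM in the donor library and at 102, 102, 231 and 359 CPM in the recipient library. Cxcl12 stood at 259.7, 372, 392.1 and 652 CPM and at 235, 519, 611 and 814 CPM. Mecom stood at 11.4, 32.3, 43.3 and 55.4 CPM in the donor library and at 3.79, 13.9, 19.0 and 38.5 CPM in the recipient library, the first and last of these from 1 and 6 UMIs. Limch1 was higher at 4 or more UMIs than at 0 in the donor library (95.6 against 33.3 CPM) and not in the recipient library (76.9 against 94.7 CPM, 0.812-fold, 0.372 to 1.68). Depp1 stood at 60.0 CPM at 4 or more UMIs and 40.6 CPM at 0 in the donor library, and at 70.5 against 26.5 CPM in the recipient library. Mgll stood at 102 against 68.2 CPM and at 186 against 109.8 CPM.

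Edn1, Gja4 and Lpl differed less between these groups. Edn1 stood at 561, 579, 724 and 815 CPM in the donor library and at 496, 648, 939.9 and 1147 CPM in the recipient library. Gja4 levelled off after the first step, at 468, 617, 653 and 665 CPM and at 398, 556, 665 and 635 CPM. Lpl stood at 256, 307, 356 and 455 CPM in the donor library and at 87.1, 125, 94.9 and 160.3 CPM in the recipient library, where each group held 23 to 30 UMIs of it. The endothelial gene Pecam1, which is on no arterial list, stood at 1277 CPM at 4 or more UMIs and 1139 CPM at 0 in the donor library (1.12-fold) and at 1462 against 1106 CPM in the recipient library (1.32-fold). Plvap, which the rule uses only as a minimum, stood at 4423 CPM at 4 or more UMIs and 2868 CPM at 0 in the donor library, and at 4603 against 2818 CPM in the recipient library.

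Other genes ran the opposite way. Cd81 stood at 230, 134, 80.4 and 44.2 CPM over the donor groups and at 386, 204, 108 and 44.9 CPM over the recipient groups. Vegfc stood at 101, 55.8, 37.7 and 11.9 CPM and at 216, 125, 41.1 and 12.8 CPM. In the group with most Hey1 and Sema3g, Vegfc was 8.48-fold lower (5.15 to 14.8) than in the group with none in the donor library. In the recipient library it was 16.8-fold lower (4.45 to 142). The recipient group with most Hey1 and Sema3g held 7 UMIs of Cd81 and 2 of Vegfc, too few to compare the libraries there. Tmem252 stood at 401, 246, 244 and 154 CPM in the donor library and at 727, 481, 421 and 212 CPM in the recipient library. Lrg1 and Fbln5 had 25 and 11 UMIs in the donor group with most Hey1 and Sema3g, and 1 UMI each in that recipient group. Hes1 ran the same way by less in the donor library, with 609, 585, 546 and 507 CPM, and the group with most UMIs was at 0.833-fold (0.753 to 0.923) of the group with none. It kept no such order in the recipient library, with 523, 606, 627 and 558 CPM. Sox17, which is on the arterial list, stood at 248 CPM at 4 or more UMIs and 369 CPM at 0 in the donor library (0.673-fold, 0.59 to 0.77). In the recipient library Sox17 stood at 288 against 352 CPM (0.819-fold, 0.56 to 1.18). The venous gene Nr2f2 had 15 UMIs at 4 or more and 16 at 0 in the donor library (0.762-fold, 0.351 to 1.65). Nr2f2 had 3 against 19 UMIs in the recipient library.

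**Figure D3:**
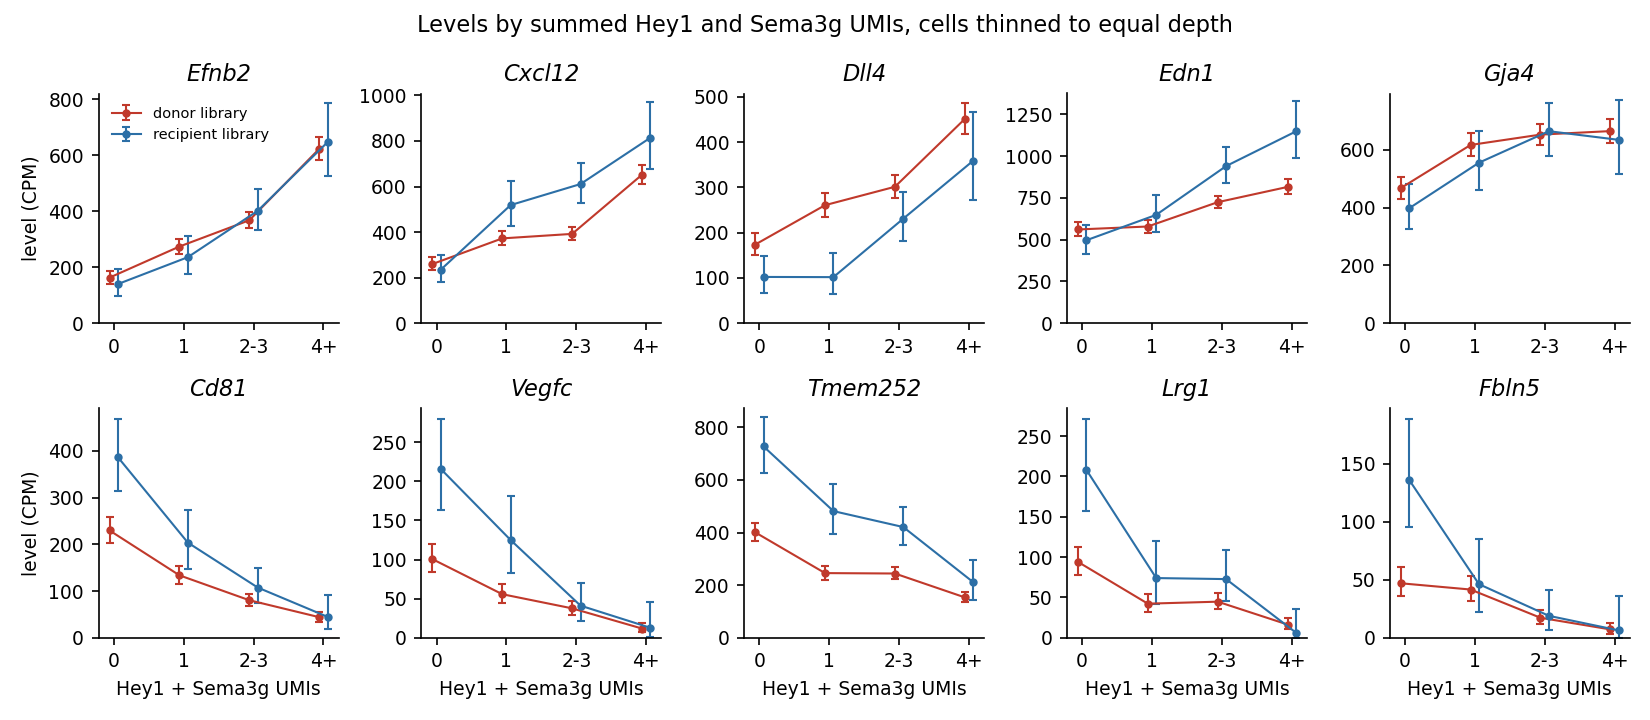
Levels in CPM (vertical axes, from 0) of 10 genes in general capillary cells grouped by their summed Hey1 and Sema3g UMIs (horizontal axes) after thinning to 4000 UMIs, in the donor library (red) and the recipient library (blue), with 95% Poisson intervals as bars. Efnb2, Cxcl12, Dll4 and Edn1 are highest in the group with 4 or more UMIs in both libraries, Gja4 levels off, and the 5 genes of the lower row are lowest there.

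Cell by cell, Gja4, Edn1, Lpl, Cxcl12 and Efnb2 were found together in many members but not in all. On thinned counts, all or all but 1 of them were detected in 52.3% of 555 donor members and 54.7% of 64 recipient members. Among cells with Hey1 alone the share was 36.1% of 202 donor and 29.2% of 24 recipient cells. With Sema3g alone it was 39.0% of 485 donor and 26.2% of 84 recipient cells. The same was seen in 23.4% of 308 donor cells and 10.6% of 66 recipient cells that had neither Hey1 nor Sema3g, and in none of 831 and 378 aerocytes. Only 2 donor members and 1 recipient member had none of the 5. Of single genes, Gja4 was detected in 455 of 555 donor members and 48 of 64 recipient members, against 30 of 831 and 5 of 378 aerocytes. Cells with Sema3g alone had Gja4 about as often as members, in 397 of 485 donor and 61 of 84 recipient cells. Those with Hey1 alone had it in 155 of 202 and 19 of 24 cells, so its detection did not set members apart from these classes. Efnb2 is also an aerocyte transcript, found in 36.6% and 31.7% of them, so that its presence alone does not mark a member.

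Set beside the other endothelial classes, donor members lay between the other general capillary cells and the Gja5 cells for some genes, and recipient members did so only for Cxcl12 among the 4 genes given here. In donor members Cxcl12 stood at 520 CPM and Efnb2 at 456 CPM, against 1394 and 765 CPM in donor cells with at least 2 UMIs of Gja5, which encodes the arterial connexin 40. Gja4 stood at 655 CPM in donor members against 869.6 CPM in these cells, and Edn1 at 761 CPM against 812 CPM. Hey1 and Sema3g, of which the rule requires at least 1 UMI each, stood at 397 and 472 CPM in donor members and at 386 and 482 CPM in donor Gja5 cells. Recipient members lay above recipient Gja5 cells for Gja4 (718 against 462 CPM), Edn1 (916 against 545 CPM) and Efnb2 (507 against 372 CPM), and below them for Cxcl12 (642 against 784 CPM). The recipient Gja5 cells carried 6521 CPM of Gsn and 2778 CPM of Inmt, genes of fibroblasts, and the part of these transcripts in the order was not tested. In donor Slc6a2 cells, Gja4 stood at 209 CPM and Efnb2 at 38.9 CPM. Donor members had less Efnb2 than donor tip-like general capillary cells (456 against 587 CPM) and more Gja4 (655 against 376 CPM) and Edn1 (761 against 419.9 CPM), so these arterial genes did not keep 1 order over the classes.

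**Figure D4:**
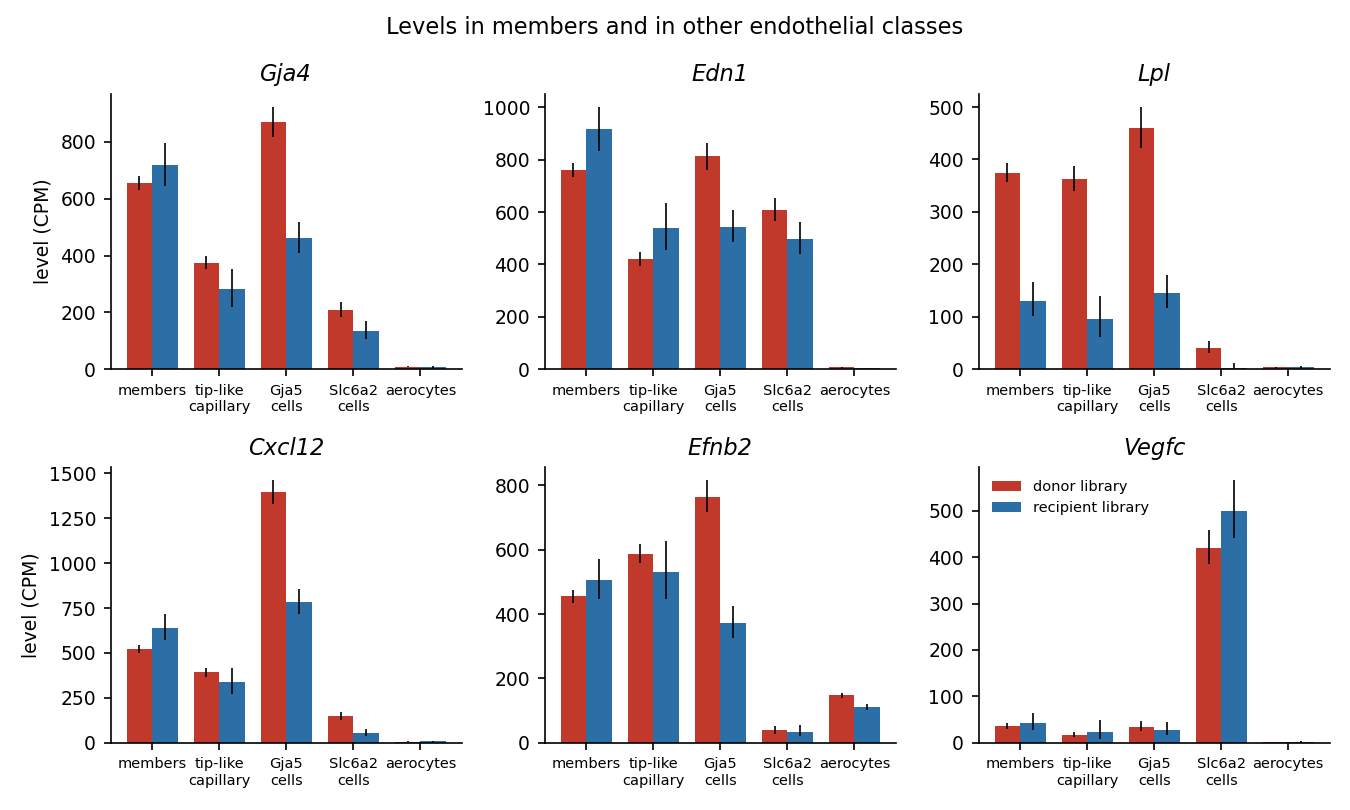
Levels in CPM (vertical axes, from 0) of 6 genes in members, tip-like general capillary cells, cells with Gja5, cells with Slc6a2 and aerocytes, in the donor library (red) and the recipient library (blue), with 95% Poisson intervals as bars. Gja4 is lower in Slc6a2 cells than in members, Cxcl12 is highest in Gja5 cells, and Vegfc is highest in Slc6a2 cells.

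The genes whose levels followed the mean of Hey1 and Sema3g most closely were found over 16 points, 8 endothelial classes in each of the 2 libraries, as Pearson correlations of log2(CPM + 10). The first was Notch1 (r = 0.82), followed by Prkacb (0.82), Ddx52 (0.80), Prss12 (0.80), Mecom (0.79), Rgs3 (0.79), Epha4 (0.79), Efnb2 (0.79), Chac1 (0.78) and Rapgef5 (0.78). The 16 points share 2 libraries, and 4 of the classes in each are cut by Hey1 and Sema3g, so the values are a description.

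Donor and recipient members differed by less than 1.5-fold in Efnb2, Gja4, Cxcl12 and Edn1. Efnb2 stood at 456 CPM in donor members and 507 CPM in recipient members, a log2 ratio of donor over recipient of -0.15 (-0.34 to 0.04), and Gja4 had a log2 ratio of -0.13 (-0.29 to 0.03). For Cxcl12 and Edn1 the log2 ratios were -0.30 (-0.47 to -0.13) and -0.27 (-0.41 to -0.12). With cells that carried markers of other types left out, those of Cxcl12 and Edn1 were -0.62, past 1.5-fold, and 0.05. Lpl stood apart, with 375 CPM in donor members against 131 CPM in recipient members, a 2.86-fold difference (2.24 to 3.71). A Lpl UMI was found in 72.9% of donor members and 40.2% of recipient members. The other general capillary cells differed in the same direction, with 327 CPM among donor cells and 84.1 CPM among recipient cells, so both sets of cells showed it.

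Over all genes, 1480 of 10268 measured with at least 20 UMIs were at least 1.5-fold higher in donor than in recipient members, which is 14.4%, and 1027 were as much lower, which is 10.0%. With 87 recipient cells many of these rest on few UMIs. Of the 22 arterial genes measured, 3 were called higher and 3 lower, which is near that background, with a median log2 ratio of -0.14. By the stricter rule for named genes, 28 were higher and 36 lower in donor members.

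Sox11, a transcription factor gene best known from embryonic tissue, was the first of the genes that were higher, with 272 CPM in donor members against 11.7 CPM in recipient members, a 23.2-fold difference (10.6 to 63.3). It was found in 431 of 739 donor members and 5 of 87 recipient members, and the other general capillary cells had 281 and 32.5 CPM. Wif1, which encodes a secreted Wnt inhibitor, stood at 81.1 CPM against 5.87 CPM. Tmem221 stood at 75.7 CPM against 3.91 CPM, from 319 and 2 UMIs. Tspan8, a tetraspanin gene, stood at 337 CPM against 72.4 CPM. Lbp, which encodes the lipopolysaccharide-binding protein, stood at 145 CPM in donor members against 21.5 CPM in recipient members, whereas the other general capillary cells had 153 CPM and 111 CPM. The log2 ratios of Lbp were thus 2.75 (1.90 to 3.76) in members and 0.46 in the others, and for Specc1 they were 1.99 (0.92 to 3.32) and 0.13. The difference between these ratios was not tested. Others among the first 12 were Casc4, Pttg1, Ifi208, Eif3j1 and Rapgef4.

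Of the genes that were lower in donor members, Mgp, Inmt, Col1a1, Gsn and Apoe are made abundantly by fibroblasts or other stromal cells. Mgp, which encodes matrix Gla protein, stood at 1.90 CPM in donor members against 139 CPM in recipient members. It also stood at 5.0 CPM in donor aerocytes and 395 CPM in recipient aerocytes. For Gsn, the gelsolin gene, the values were 16.6 CPM against 164 CPM in members, and 16.8 CPM against 411 CPM in aerocytes. Of the 32 Col1a1 UMIs of recipient members, 27 lay in 3 cells. Leaving out cells with at least 3 UMIs over the markers of other types, a setting chosen after seeing the data, kept 55 of the 87 recipient members. In the cells kept, the log2 ratio was -5.23 for Mgp (-6.19 in all members), -4.77 for Inmt (-5.63), -4.18 for Col1a1 (-4.58), -4.46 for Gsn (-3.31) and -2.04 for Apoe (-2.74). All 5 remained lower in donor members. The summed fibroblast markers given above differed between the libraries in the same direction as these genes. Those markers include Col1a1 and Inmt, so the shared direction is not separate support. The filter on other types also counts Col1a1 and Inmt, so their ratios in the cells kept depend on it directly.

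Ifi204, an interferon-inducible gene of the PYHIN family, stood at 29.4 CPM in donor members against 366 CPM in recipient members and was found in 72 of 739 and 67 of 87 cells. Its log2 ratio was -3.64 (-3.98 to -3.30) in members and -3.25 in the other general capillary cells. Ifi208 of the same family ran the opposite way, with 52.2 CPM against 11.7 CPM. Eif3j1 and Eif3j2, near-identical copies of a translation factor gene, were likewise opposite, with 74.7 CPM against 19.6 CPM and 12.3 CPM against 52.8 CPM. How reads were divided between the copies was not tested. Adat1, which encodes a tRNA-editing deaminase, stood at 8.30 CPM against 93.9 CPM. Gdf15, a stress-induced cytokine gene, stood at 25.9 CPM against 162 CPM, but 52 of the 83 UMIs in recipient members lay in 3 cells. With cells that carried markers of other types left out, its log2 ratio was -0.27, against -2.65 with all members, so the difference was then under 1.5-fold. Vcam1, Clec1b and Fam174b complete the list, and Vcam1 stood at 11.6 CPM against 58.7 CPM.

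**Figure D5:**
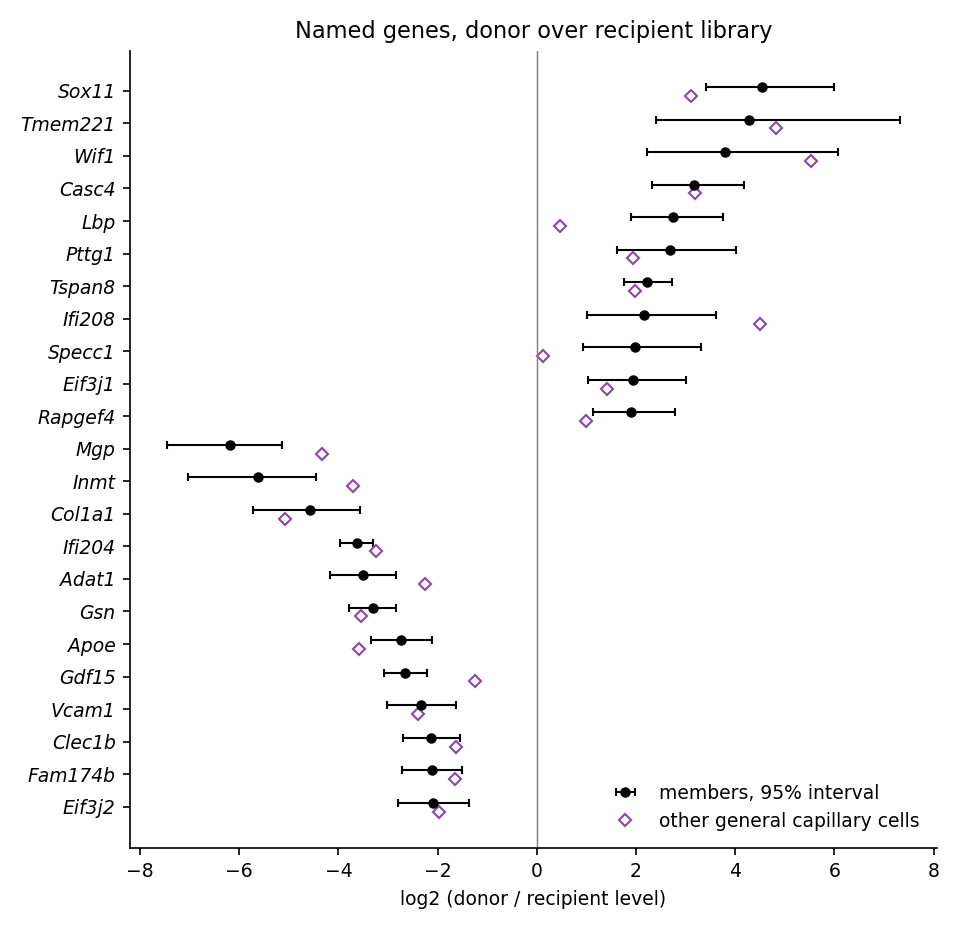
Log2 ratio of donor over recipient level (horizontal axis) of 23 genes named by rule, in members (black points with 95% intervals) and in other general capillary cells (purple diamonds). The 11 genes that were higher in donor members stand above the 12 that were lower, and Lbp and Specc1 have diamonds near 0 beside ratios of 2.75 and 1.99 in members.

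Of 7 genes of MHC class II antigen presentation, 3 were called higher in donor members and none lower, where 14.4% of all genes were called higher and 10.0% lower, with a median log2 ratio of 0.58. The invariant chain gene Cd74 stood at 3138 CPM in donor members against 1945 CPM in recipient members. The other general capillary cells had a median log2 ratio of 0.62 over the same genes, close to that of members. Of 13 p53 target genes measured, 2 were called higher and 5 lower in donor members, with a median log2 ratio of -0.37. Over all genes the shares were 14.4% and 10.0%, so the count of higher p53 targets is near the background, and with cells that carried markers of other types left out the median was -0.01. Among the lower ones, the apoptosis gene Bax stood at 156 CPM against 258 CPM, and among the higher ones the kinase gene Plk2 at 699 CPM against 411 CPM. Of 21 Notch pathway genes 3 were called higher and 2 lower, which is near the share over all genes (14.4% and 10.0%), with a median log2 ratio of -0.15. The receptor gene Notch4 was one of the higher ones, at 179.6 CPM against 119 CPM.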

How the data were processed

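Single-cell RNA-seq (10x) measured the tdTomato-positive and the tdTomato-negative cells of 3 pooled lungs in 1 library each. The deposited values are counts of UMIs per gene and barcode, made by the authors with Cell Ranger 4.0.0 per the file headers and the submitters' processing notes, on mm10 (the labels' protocol names another version). Cells with at least 1000 UMIs and under 7% mitochondrial counts were kept. Doublets were scored and not removed, since the caller's own threshold marked 2 donor barcodes (and 135 recipient barcodes). Removing the highest scores was an alternative. Summed UMIs of each class were turned into CPM with exact Poisson intervals. Ratios have exact binomial intervals, and shares Clopper-Pearson intervals, at 95%. PCR and capture error are not in them. A count of 0 was set to 3 counts for a fold. Genes were named in the comparison within libraries with at least 30 CPM, 1.5-fold in the same direction in both libraries and intervals excluding equality, the first 15 each way, and between donor and recipient members with at least 50 CPM, 2-fold and an interval excluding 1.5-fold, the first 12 each way. Mitochondrial, ribosomal protein, haemoglobin and sex-linked genes and unnamed models were left out. Of the genes picked, 1 is not reported here. Members, lists and rules were chosen with earlier results of these data known. Alternatives were other thresholds, thinning to 4000 UMIs, matched depth, TMM scaling (edgeR) and removal of shared barcodes or high doublet scores. Python 3.11.15, numpy 2.4.6, scipy 1.17.1, scanpy 1.11.5 and matplotlib 3.10.9 were used. The procedure was tested on simulated data.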

Additional observations from a re-analysis of the deposited data

Results flagged for a closer look

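In the 5 genes given here the 2 libraries, or members and the other general capillary cells, differed in direction, and none of these differences was tested. Other genes did so too. Bmx, for one, stood at 19.9 CPM in donor members against 15.9 CPM in the other donor cells. In the recipient library it stood at 7.83 against 15.6 CPM. Vwf had a log2 ratio of members over other general capillary cells of 0.14 among donor cells and -0.95 among recipient cells. The growth factor gene Bmp4 had 0.17 among donor cells and -0.42 among recipient cells. The early response gene Fosb had 0.17 among donor cells and -0.45 among recipient cells. Kitl, the ligand of the receptor KIT, had -0.16 among donor cells and 0.30 among recipient cells. Cd36, the fatty acid transporter gene, had a log2 ratio of donor over recipient of -0.16 in members and 0.10 in the other general capillary cells.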

How the results depend on the processing

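With at least 2 UMIs of Hey1 and of Sema3g, members were 293 donor and 28 recipient cells, 13.6% and 8.81% of general capillary cells, and 51 genes were higher in members. Without the tip and interferon exclusions the shares were 47.7% and 35.2%, with 25 genes higher and 61 lower. Thinning gave a donor share of 29.1%, with 4 genes higher and 48 lower. The count of 121 lower genes was 72 without either copy of shared barcodes and 75 with comparison cells matched on UMIs. A minimum of 100 UMIs gave 1 higher and 20 lower, and 530 higher and 294 lower in donor than in recipient members. A minimum of 1 UMI gave 1035 higher and 274 lower, and 6110 lower in donor members. A fold of 2 gave 1 higher and 61 lower, and 686 higher and 357 lower in donor members. Of settings chosen after seeing the data, the same exclusions gave 62 lower, leaving out cells with markers of other types gave 55 recipient members, 4 higher and 45 lower, and both together gave 37 lower.

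Log2 ratios of members over the others reversed in these cases, and the cause was not tested. For Ager in the recipient library the value was 0.37 without shared barcodes, 0.47 without high doublet scores, 3.87 without the exclusions, 0.60 with the same exclusions, 0.46 with other-type cells out and 0.15 with both. Ager in the donor library was 0.19 with the same exclusions and 0.018 with both. Cldn18 in the recipient library was 4.94 without the exclusions, 1.48 with the same exclusions, 1.03 with other-type cells out and 0.56 with both. Lyz2 in the donor library was 2.95 without the exclusions, 0.31 with other-type cells out and 0.018 with both. Cxcl10 in the recipient library was 0.58 without the exclusions, and there the median of the lymphatic list was 0.076 and that of the alveolar type 1 list 4.15. With other-type cells out, Nrgn was 0.39 in the donor and 0.61 in the recipient library, and in the recipient library Ppbp was 1.61, Pf4 3.20 and Rgcc 0.52. With both, Nrgn was 0.50 in the donor and 0.15 in the recipient library, and in the recipient library Ppbp was 1.15 and Rgcc 0.69. Ager, Lyz2, Pf4 and Ppbp are among the markers by which other-type cells were left out, so their values there were set in part by that filter. No paired analysis was possible because each group has 1 library. Mecom, which was under 1.5-fold against all other cells, was -0.07 in the donor library with comparison cells matched on UMIs. With other-type cells out, the log2 ratio of donor over recipient members was -0.27 for Gdf15. The recipient values rest on 87 members.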
